A study of Mus musculus with 4 samples.

Results

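Gnat3, Zbed6, Lnpep and Ptpn4 are 4 mouse genes with low RNA in the libraries labelled Isl1CKO and DKO, set against those labelled Pou4f1KO and control. They were chosen by gene symbol because earlier results of these data showed that difference, so the difference itself is described here and carries no test. All 4 stand in each of the 4 gene tables, among 25239 symbols. All 4 also passed a filter of 1 TPM (a transcript level scaled for gene length and library total) in at least 1 library, as did 15049 symbols in all. The samples are cochleovestibular ganglia, the clusters of young auditory and vestibular sensory neurons beside the inner ear, dissected at embryonic day 11.5. One strand-specific library was made for each genotype label: Isl1CKO (read as a conditional knockout of Isl1), DKO (read as a knockout of both genes), Pou4f1KO (read as a knockout of Pou4f1) and control. The Cre driver, the alleles, the strain, and whether a library pools embryos are not given in the sources used here.

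With 1 library per genotype there is no replicate error: no difference has a replicate check, no p-value was computed, and every value describes these 4 libraries. Aligned sequence came to between 13.6 and 16.6 gigabases per library. Isl1, summed over the whole gene, had 854 TPM in the library labelled Isl1CKO, 579 TPM in that labelled DKO, 340 TPM in that labelled Pou4f1KO and 450 TPM in control. The Isl1 level therefore goes against the Isl1CKO and DKO labels, and no exon values were available to show a deleted part. Pou4f1 had 188, 14.6, 16.6 and 146 TPM in the same order, low in both libraries whose label names its loss. All 14 markers of cochleovestibular sensory neurons passed the filter. Their summed level was 8147 TPM in the library labelled Isl1CKO, 7345 in DKO, 7513 in Pou4f1KO and 6868 in control, a sum led by Tubb3 and Stmn2. Their median log2 ratio was 0.02 in Isl1CKO against control, -0.23 in DKO against Pou4f1KO (2 of 14 at least 2-fold lower, where 1.12% of all genes were) and -0.25 in DKO against control (4 of 14, where 2.34% were). Single markers went both ways in Isl1CKO against control and DKO against Pou4f1KO. Neurog1 (-0.58 and -1.26) and Ntrk3 (-0.67 and -0.96) were lower in both, and Neurod1 (0.34 and 0.13) and Isl1 (0.92 and 0.77) higher in both.

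ISL1 is a LIM-homeodomain and POU4F1 a POU-homeodomain transcription factor. Both are made by newly formed sensory neurons, and in mouse dorsal root and trigeminal ganglia both help to end the early neurogenic programme and to start that of the mature sensory neuron. Gnat3 encodes gustducin, the G protein alpha subunit best known from taste receptor cells, where it couples to sweet, bitter and umami receptors. Zbed6 encodes a nuclear protein derived from a DNA transposon, known in placental mammals as a repressor of Igf2 in muscle, and lies inside the first intron of Zc3h11a, a gene for an RNA-binding zinc finger protein. Lnpep encodes insulin-regulated aminopeptidase, a membrane enzyme that travels in GLUT4 storage vesicles and cleaves oxytocin, vasopressin and other peptides. Ptpn4 encodes a cytoplasmic protein tyrosine phosphatase with a FERM and a PDZ domain, known to bind glutamate receptor subunits in brain.

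The promoter windows of the 4 genes, taken around their annotated starts, are shown for their base composition, in which they differ. The genes were chosen for their shared difference between the libraries, so that likeness is not a finding. The Zbed6 window lies inside the span of Zc3h11a, and whether it acts as a promoter was not tested. Each window holds 300 bases of the gene's own strand, 250 before and 50 after the RefSeq start (RefSeq, build GRCm38.p6, 4 of 4 genes matched). Capitals mark TAAT or its reverse complement ATTA, the core letters that homeodomain proteins are known to bind. The windows are chr5:17962320-17962619 on the plus strand for Gnat3, chr1:133660836-133661135 on the minus strand for Zbed6, chr17:17624440-17624739 on the minus strand for Lnpep, and chr1:119837022-119837321 on the minus strand for Ptpn4.
Gnat3: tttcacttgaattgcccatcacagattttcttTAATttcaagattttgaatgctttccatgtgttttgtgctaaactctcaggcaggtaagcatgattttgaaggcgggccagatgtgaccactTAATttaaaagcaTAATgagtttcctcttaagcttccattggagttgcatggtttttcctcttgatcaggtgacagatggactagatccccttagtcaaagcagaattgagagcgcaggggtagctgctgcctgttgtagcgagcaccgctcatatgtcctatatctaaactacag
Zbed6: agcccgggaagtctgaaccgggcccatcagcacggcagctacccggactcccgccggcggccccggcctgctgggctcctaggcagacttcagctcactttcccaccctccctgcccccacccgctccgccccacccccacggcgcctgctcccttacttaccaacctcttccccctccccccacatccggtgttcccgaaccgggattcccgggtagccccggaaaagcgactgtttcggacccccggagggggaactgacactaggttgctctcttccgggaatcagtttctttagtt
Lnpep: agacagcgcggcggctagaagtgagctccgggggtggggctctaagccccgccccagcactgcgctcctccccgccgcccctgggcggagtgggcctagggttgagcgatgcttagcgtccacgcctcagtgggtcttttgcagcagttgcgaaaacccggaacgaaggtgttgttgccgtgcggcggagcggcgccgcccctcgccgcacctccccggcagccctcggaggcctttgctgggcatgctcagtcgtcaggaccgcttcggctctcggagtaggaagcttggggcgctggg
Ptpn4: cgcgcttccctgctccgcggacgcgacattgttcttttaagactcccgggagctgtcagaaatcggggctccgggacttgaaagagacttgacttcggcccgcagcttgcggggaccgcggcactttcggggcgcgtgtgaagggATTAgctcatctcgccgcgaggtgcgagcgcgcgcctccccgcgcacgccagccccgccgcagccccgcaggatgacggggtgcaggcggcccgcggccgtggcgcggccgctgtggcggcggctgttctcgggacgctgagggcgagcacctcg

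The Gnat3 window stands apart from the other three in composition. Its GC content is 42%, with 4 CpG dinucleotides, and 14.1% of all 32817 promoter windows of this length have a lower GC content. The other windows are GC-rich: 66% with 21 CpG for Zbed6, 69.3% with 30 CpG for Lnpep, and 71% with 44 CpG for Ptpn4, where the median of all windows is 52.7% with 7 CpG. TAAT, read on both strands, occurs 3 times before the Gnat3 start, once before the Ptpn4 start, and not in the windows of Zbed6 and Lnpep. Of all windows 58.0% hold at least 1 TAAT and 20.05% hold 3 or more. Longer motifs that contain this core, TAATTA (in 5.30% of all windows) and TAATNG (in 20.6%), were in none of the 4, nor was the octamer ATGCAAAT (in 1.74%), which POU proteins are known to bind. Such a match, or its absence, describes the letters of the window only.

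Gnat3, the taste G protein subunit, had the lowest ratio of all genes compared in the library labelled Isl1CKO. Its level was 2.12 TPM in the library labelled Isl1CKO, 2.01 in DKO, 14.6 in Pou4f1KO and 17.1 in control. Both libraries with the Isl1 label were thus far below both others, and within each pair the values lay close. Its mean read depth per base (coverage, not scaled between libraries) was 10.5 in Isl1CKO, 11.7 in DKO, 84.3 in Pou4f1KO and 102 in control. The library labelled Isl1CKO held 12.4% of the control TPM, and the library labelled DKO held 13.8% of that in Pou4f1KO. On the log2 scale of (TPM + 1), which understates differences of low genes, the ratios were -2.54 for Isl1CKO against control and -2.37 for DKO against Pou4f1KO. Gnat3 ranked 1 from the lowest of 15049 genes in Isl1CKO against control and 16 in DKO against Pou4f1KO. The library labelled Pou4f1KO differed little from control, with a ratio of -0.22.

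Zbed6, the transposon-derived repressor, was the most abundant of the 4. Its level was 12.1 TPM in the library labelled Isl1CKO, 13.3 in DKO, 39.7 in Pou4f1KO and 38.6 in control. Coverage was 59.7 in Isl1CKO, 77.7 in DKO, 229 in Pou4f1KO and 229 in control. The Isl1CKO value was 31.2% of control, and the DKO value 33.6% of Pou4f1KO. The log2 ratios were -1.60 for Isl1CKO against control, rank 11 from the lowest, and -1.50 for DKO against Pou4f1KO, rank 58. Among all genes compared, Zbed6 stood at percentile 36.5 by TPM in Isl1CKO and 38.1 in DKO, against 64.7 in Pou4f1KO and 64.4 in control.

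Lnpep, the aminopeptidase, had 3.71 TPM in the library labelled Isl1CKO, 4.59 in DKO, 11.3 in Pou4f1KO and 11.7 in control. Coverage was 18.4 in Isl1CKO, 26.7 in DKO, 65.1 in Pou4f1KO and 69.3 in control. Again both libraries with the Isl1 label lay below both others, and of these 2 the DKO library was the higher. The Isl1CKO level was 31.8% of control and the DKO level 40.7% of Pou4f1KO. Log2 ratios were -1.43 for Isl1CKO against control and -1.14 for DKO against Pou4f1KO, ranks 21 and 126 from the lowest. The second ratio is the closest of the 4 genes' to the 2-fold line. It was -0.98 after scaling the libraries to an equal mean log2 level of pan-neuronal genes. In FPKM, the deposited unit scaled by length and depth, it was -0.89, with 1 added likewise.

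Ptpn4, the phosphatase, had 3.08 TPM in the library labelled Isl1CKO, 3.41 in DKO, 10.1 in Pou4f1KO and 9.64 in control. Coverage was 15.2 in Isl1CKO, 19.9 in DKO, 58.1 in Pou4f1KO and 57.1 in control. Its pattern resembled that of Zbed6 at a lower level, with 31.9% of the control TPM left in Isl1CKO and 33.9% of the Pou4f1KO TPM left in DKO. The log2 ratios were -1.38 for Isl1CKO against control, rank 25, and -1.33 for DKO against Pou4f1KO, rank 86. With 5 TPM added in place of 1, the ratios of Lnpep and Ptpn4 fell short of 2-fold in both comparisons (-0.94 and -0.86 for Isl1CKO against control, -0.76 and -0.84 for DKO against Pou4f1KO).

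**Figure D1:**
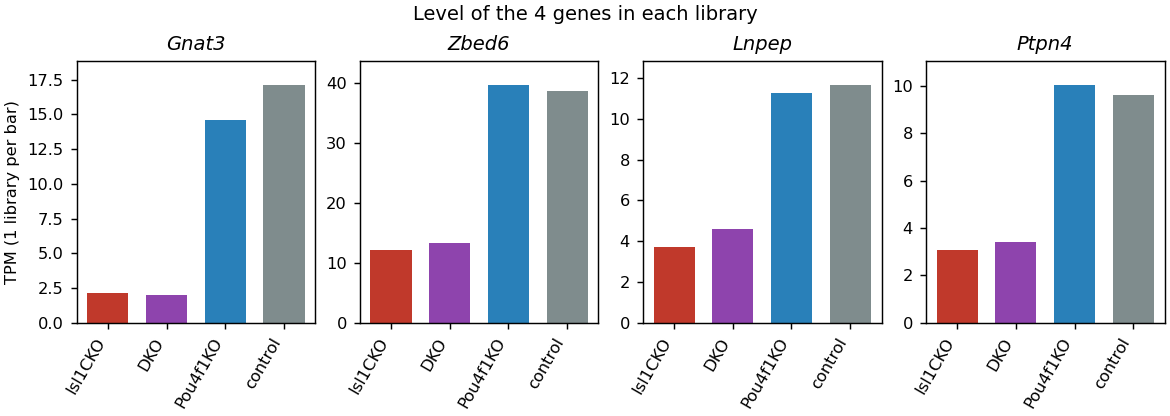
Level of each gene in TPM (linear axis from 0, a separate scale for each gene) in the 4 libraries, 1 bar per library. In every panel the bars of Isl1CKO and DKO are far below those of Pou4f1KO and control, most of all for Gnat3 (2.12 and 2.01 TPM against 14.6 and 17.1 TPM).

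In the libraries labelled Isl1CKO and DKO the order of the levels was Zbed6, Lnpep, Ptpn4 and Gnat3 from highest to lowest, whereas in Pou4f1KO and control Gnat3 came second. How far neighbours in these orders differ beyond replicate spread cannot be said with 1 library each. Against control directly, the library labelled DKO had log2 ratios of -2.59 for Gnat3, -1.47 for Zbed6, -1.18 for Lnpep and -1.27 for Ptpn4. In FPKM those of Lnpep and Ptpn4 were -0.96 and -0.99, short of 2-fold. The library labelled Pou4f1KO had ratios to control of -0.22, 0.04, -0.05 and 0.06 for the same genes. The departure from additivity, the DKO to Pou4f1KO ratio minus the Isl1CKO to control ratio, was 0.17 for Gnat3, 0.10 for Zbed6, 0.29 for Lnpep and 0.06 for Ptpn4. With pan-neuronal scaling these departures were 0.46, 0.38, 0.57 and 0.33, so their size rests on the scaling. The ratio with the Isl1 label was nearer to 0 beside the Pou4f1 label for each of the 4, a difference that was not tested because 4 libraries leave no residual degrees of freedom.

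The 2-fold difference that the 4 genes show was rare among the 15049 genes compared. In Isl1CKO against control, 93 genes (0.618%) were at least 2-fold lower and 88 (0.585%) at least 2-fold higher. In DKO against Pou4f1KO, 168 (1.12%) were lower and 97 (0.645%) higher. These 2 comparisons share no library, and 32 genes were lower in both, which is 34.4% of the first list and 19.05% of the second, while 5 genes lower in the first were higher in the second. For DKO against control, 352 genes (2.34%) were lower and 152 (1.01%) higher, and for Pou4f1KO against control, 260 (1.73%) were lower and 147 (0.977%) higher. None of the 4 genes passed 2-fold in Pou4f1KO against control. Since the 4 genes were selected on the comparisons with the Isl1 label, nothing is read from their place in these counts. Scaling the libraries to equal pan-neuronal genes moved these splits: 137 lower and 73 higher in Isl1CKO against control, 122 and 119 in DKO against Pou4f1KO, 472 and 119 in DKO against control, and 449 and 92 in Pou4f1KO against control.

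**Figure D2:**
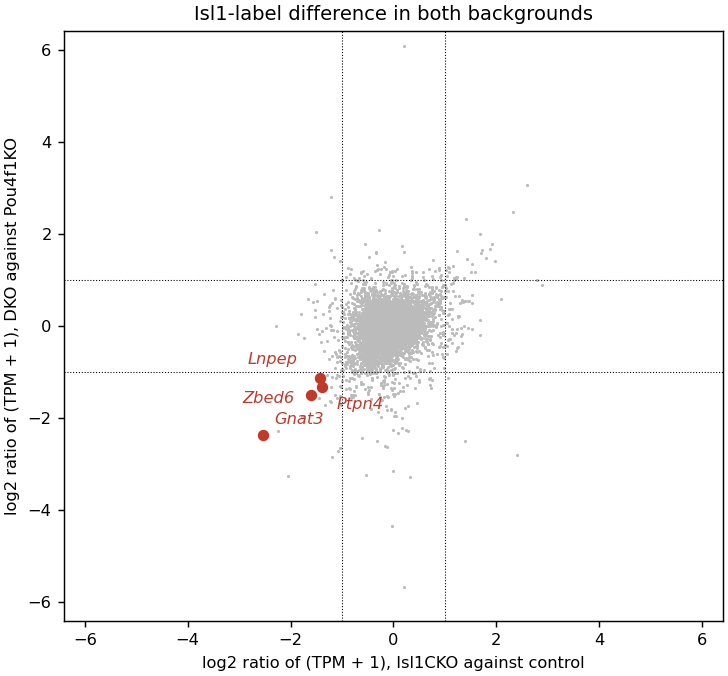
Each grey point is 1 of the 15049 genes, placed by its log2 ratio of (TPM + 1) for Isl1CKO against control (horizontal) and DKO against Pou4f1KO (vertical), with dotted lines at 2-fold. The 4 genes, in red, lie in the lower left corner field, Gnat3 the farthest out of the 4 at -2.54 and -2.37.

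A stricter pattern asks that both libraries with the Isl1 label be at least 2-fold below both others, and 20 genes (0.133%) met it, against 14 (0.093%) that met its mirror image. The pattern depended on the unit and the added constant: 5 genes met it in FPKM and 4 with 5 TPM added, Gnat3 and Zbed6 within both sets, and Lnpep and Ptpn4 in neither (-0.89 and -0.99 in FPKM). Ordered by the gap between the higher of the low pair and the lower of the high pair, Gnat3 ranked 1, Zbed6 4, Ptpn4 6 and Lnpep 12. Between them stand Gata3, Insm2, Ptar1, Oprm1, Mybpc1, Xkr4, Aldh1a1 and Chrdl1. Gata3 is a zinc finger transcription factor needed for inner ear development, Insm2 a zinc finger gene of neuroendocrine cells, and Oprm1 the mu opioid receptor. Gata3, the nearest in size to Gnat3, had 7.39 TPM in the library labelled Isl1CKO, 9.43 in DKO, 49.9 in Pou4f1KO and 38.5 in control. Just inside the 2-fold line were Mir3113 and 2410021H03Rik with gaps of -1.02 and -1.01, and just outside it Fam124b and Zfp369 with -0.99 and -0.90. The 20 genes lay on 10 chromosomes, at most 4 on any of them, with none on chromosome 13, which holds Isl1, and none on chromosome 14, which holds Pou4f1. The share of all compared genes on chromosomes 13 and 14 was not counted, so nothing is read from this absence. Of the 4 genes described here, Zbed6 and Ptpn4 are both on chromosome 1.

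**Figure D3:**
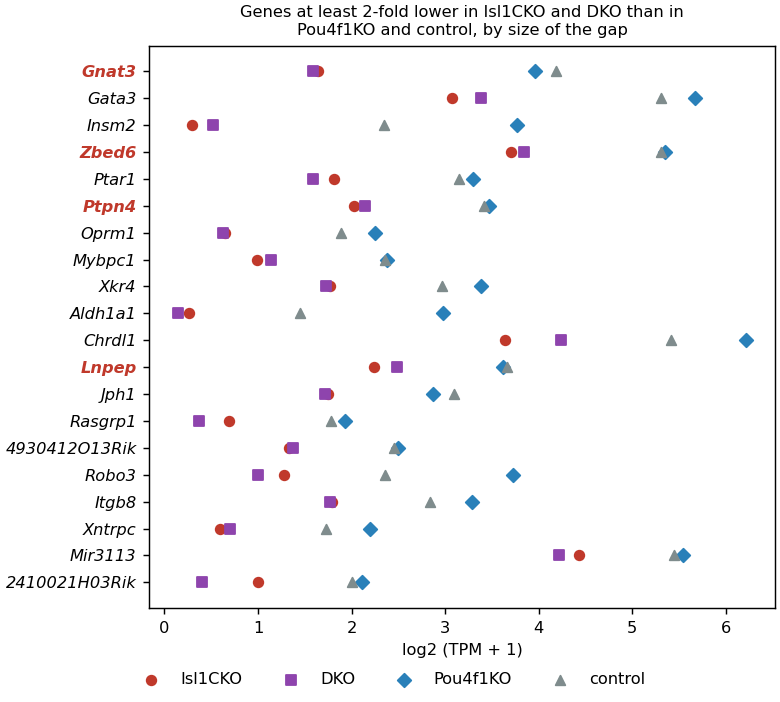
Level on the log2 (TPM + 1) axis of the 20 genes at least 2-fold lower in the libraries labelled Isl1CKO (circles) and DKO (squares) than in Pou4f1KO (diamonds) and control (triangles), ordered by the gap. For Zbed6, Ptpn4 and Lnpep the points of Pou4f1KO and control nearly coincide, whereas for Insm2, Aldh1a1, Chrdl1 and Robo3 the Pou4f1KO point lies far to the right of control.

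Likeness to each gene was measured as the Euclidean distance over the 3 log2 ratios to control, among 11368 genes on 1 row with at least 5 TPM in their highest library. Lnpep and Ptpn4 were each other's nearest gene, at a distance of 0.142. Zbed6 was nearest to Ptpn4, at 0.293, then to Ptar1, a gene with protein prenyltransferase repeats, at 0.305, and to Lnpep at 0.343. The third gene near Lnpep and Ptpn4 was Jph1, which encodes junctophilin 1, a protein that ties the endoplasmic reticulum to the plasma membrane, at 0.280 and 0.308. Gnat3 had no such close neighbour, with Gata3 at 0.936, Zbed6 at 1.49 and Ptar1 at 1.62. Ptar1 had 2.52 TPM in the library labelled Isl1CKO, 2.002 in DKO, 8.86 in Pou4f1KO and 7.87 in control. Jph1 had 2.35 TPM in Isl1CKO, 2.29 in DKO, 6.31 in Pou4f1KO and 7.57 in control. All 3 ratios share the control library, so a distance describes likeness over these 4 libraries only, and the 4 genes were chosen for it.

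The rows of the 4 genes have the same coordinates (mm10) in all 4 tables. Gnat3 is the row at chr5:17962570-18019668 on the plus strand, with 8 exons in GENCODE M21. Its row ends 0.166 kb before the GENCODE gene, which equals the 166 bases of the annotated 3′ UTR, and holds 1174 of 1361 exonic bases. Zbed6 is a single exon at chr1:133655879-133660885 on the minus strand, 5007 bases long, with the same ends in both annotations. Lnpep, at chr17:17527723-17624489 on the minus strand, has 18 exons in GENCODE, and Ptpn4, at chr1:119658093-119837071 on the minus strand, has 27. Their rows stop 6.31 kb and 5.63 kb short of the GENCODE 3′ ends and hold 7270 of 14144 and 5153 of 11321 exonic bases, so reads in the outer 3′ UTR of these transcripts lie beyond the row.

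Zbed6 is the only one of the 4 whose row overlaps another row. It lies on the same strand wholly inside that of Zc3h11a (chr1:133619862-133661399), and starts 514 bases downstream of the host's start. Zc3h11a had 142 TPM in the library labelled Isl1CKO, 153 in DKO, 143 in Pou4f1KO and 142 in control, with log2 ratios of 0.00 for Isl1CKO against control and 0.11 for DKO against Pou4f1KO. The host row was thus nearly level where Zbed6 was about 3-fold lower: Zbed6 came to 8.48% of the Zc3h11a TPM in Isl1CKO and 8.70% in DKO, but to 27.9% in Pou4f1KO and 27.2% in control. By coverage the Zbed6 to Zc3h11a ratio was 0.195, 0.207, 0.643 and 0.645 in the same order.

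Of the 13 GENCODE transcripts of Zc3h11a, 2 have exonic bases within Zbed6, and together these cover 74 of its 5007 bases (1.48%). The tables hold no reads by exon or intron, so host RNA retaining the first intron cannot be told apart from Zbed6 RNA, and its part in the values was not tested. The Zbed6 window shown above lies inside the host's span, and whether it acts as a promoter was not tested. The host's own 300-base window has 50.7% GC, 13 CpG and 1 TAAT. Summed over both rows, the level was 154 TPM in Isl1CKO, 167 in DKO, 182 in Pou4f1KO and 180 in control, and the log2 ratios of the sum were -0.22 for Isl1CKO against control and -0.13 for DKO against Pou4f1KO. The sum, of which Zc3h11a is the larger part, was not past 2-fold. For the 4 genes the ratio of coverage to FPKM equalled the library's common value, whereas for Zc3h11a it was lower, between 5.93 and 7.18 against 13.6 to 16.6, so its coverage is not on the scale of theirs.

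**Figure D4:**
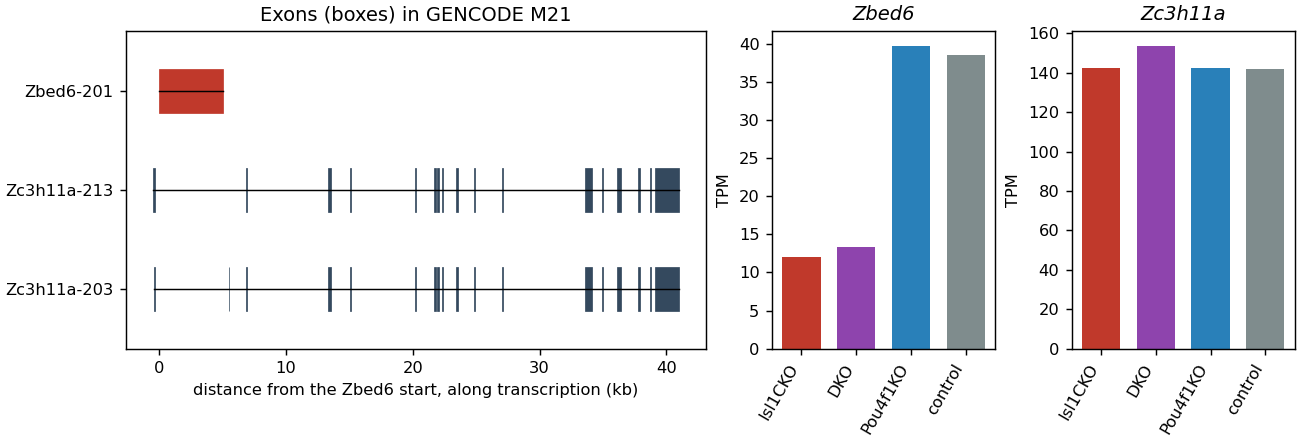
Left, exons (boxes) of Zbed6 and of the longest coding transcripts of its host Zc3h11a in kb from the Zbed6 start along transcription. Right, TPM of each row in the 4 libraries (linear axes from 0): Zbed6 is low in Isl1CKO and DKO, at 12.1 and 13.3 TPM against 39.7 in Pou4f1KO and 38.6 in control, and Zc3h11a stays between 142 and 153 TPM.

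The nearest rows beside the 4 genes were not past 2-fold in either comparison with the Isl1 label. Next to Gnat3, Gnai1, the gene for an inhibitory G protein alpha subunit, had 40.1 TPM in the library labelled Isl1CKO, 43.3 in DKO, 41.5 in Pou4f1KO and 30.4 in control, while Cd36, on the other side, stayed under 1 TPM in all 4. Beside Lnpep, Lix1 had 6.21 TPM in Isl1CKO, 9.30 in DKO, 9.05 in Pou4f1KO and 9.10 in control, a log2 ratio of -0.49 in Isl1CKO against control and 0.03 in DKO against Pou4f1KO; Vmn2r90, on its other side, was listed at 0. Epb41l5, a FERM domain gene 9.09 kb from Ptpn4 on the same strand, had 16.0 TPM in Isl1CKO, 15.2 in DKO, 17.8 in Pou4f1KO and 19.4 in control, with ratios of -0.27 and -0.21. The other neighbours, Tmem177 by Ptpn4 (12.5 to 14.2 TPM) and Snrpe by Zbed6 (280 to 339 TPM), varied little, and Lax1 stayed under 1 TPM. Within 1 Mb there were 2 compared genes around Gnat3, 22 around Zbed6, 13 around Lnpep and 11 around Ptpn4. Among these 0 passed 2-fold in Isl1CKO against control, where 0.618% of all genes were lower and 0.585% higher. In DKO against Pou4f1KO 1 did, En1 near Ptpn4 at -1.09, where 1.12% of all genes were lower and 0.645% higher. Counts this small lie near those shares, so nothing is read from them. GENCODE also places Gm38394 over Zbed6, Gm49784 over Lnpep, and Gm3851, Gm29657, Gm8338 and Gm37745 over Ptpn4. None of these is a row in the tables, and their part in the values was not tested.

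The 4 family lists were short, and with 0.618% of all genes at least 2-fold lower in Isl1CKO against control and 1.12% in DKO against Pou4f1KO, a list of this size would hold few such genes or none. Of 16 G protein alpha subunit genes, 12 passed the filter, and Gnat3 was the only one past 2-fold in either comparison with the Isl1 label. The median ratio of the 12 was -0.08 in Isl1CKO against control and -0.11 in DKO against Pou4f1KO, beside -0.02 and -0.02 over all genes. The abundant subunits Gnas (580 TPM in Isl1CKO, 604 in DKO, 640 in Pou4f1KO and 628 in control) and Gnai3 (238, 248, 248 and 234 TPM) differed little. Gnat1 and Gnat2, the transducin subunits of rods and cones and closest in name, stayed below 1 TPM.

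The rest of the taste pathway was mostly near or below detection. Of 17 listed genes, 16 are in the tables and 8 passed the filter, and again Gnat3 was the only one past 2-fold with the Isl1 label. The taste receptor gene Tas1r2 and Rgs21 were listed at 0 in all 4 libraries. Trpm5, the cation channel that opens downstream of taste receptors, was listed at 0 in Isl1CKO and had 0.061 TPM in DKO, 0.065 in Pou4f1KO and 0.056 in control. Plcb2, the phospholipase C of the pathway, had 0.469, 0.982, 0.722 and 0.553 TPM. P2rx3, an ATP receptor of sensory neurons that taste nerves carry, was abundant, with 296 TPM in Isl1CKO, 313 in DKO, 383 in Pou4f1KO and 291 in control. Of 13 markers of taste and other chemosensory cells 7 passed the filter, and Pou2f3, a defining transcription factor of such cells, was listed at 0 in every library. Pkd2l1, a channel gene of sour-sensing cells on that list, was higher with the Isl1 label, at 23.2 TPM in Isl1CKO, 40.7 in DKO, 15.5 in Pou4f1KO and 7.44 in control.

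A list of 13 genes held the ZBED genes, other genes derived from transposases and the host Zc3h11a. Of these 11 passed the filter, the host among them, and Zbed6 was the only one past 2-fold with the Isl1 label. Zbed4 had 50.4 TPM in Isl1CKO, 50.5 in DKO, 54.1 in Pou4f1KO and 48.9 in control, and Zbed3 and Zbed5 were as level (34.3 to 38.8 and 9.95 to 11.4 TPM). None of the 12 genes of the insulin-like growth factor axis, which holds the known ZBED6 target Igf2, passed 2-fold in either comparison with the Isl1 label. Igf2 itself had 221 TPM in Isl1CKO, 420 in DKO, 262 in Pou4f1KO and 285 in control, log2 ratios of -0.36 for Isl1CKO against control and 0.68 for DKO against Pou4f1KO. The Igf2 ratios thus had opposite signs in the 2 comparisons in which Zbed6 was lower. Summed mesenchyme markers, from tissue that makes much Igf2, were 550 TPM in Isl1CKO, 836 in DKO, 721 in Pou4f1KO and 707 in control, in the same order as Igf2 except for Pou4f1KO and control; their part in the Igf2 values was not tested.

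Lnpep belongs to the M1 aminopeptidases, of which 9 of 11 listed genes passed the filter, with a median ratio of -0.13 in Isl1CKO against control and -0.15 in DKO against Pou4f1KO. Lnpep alone was past 2-fold. The next lowest was Trhde, which cleaves thyrotropin-releasing hormone, with 14.2 TPM in Isl1CKO, 12.3 in DKO, 21.7 in Pou4f1KO and 21.9 in control (log2 ratios -0.59 and -0.77). Erap1, a close relative that trims antigenic peptides, had 2.71, 2.28, 2.56 and 2.89 TPM. All 14 listed genes of the GLUT4 storage vesicle passed the filter and only Lnpep was past 2-fold; Slc2a4, the GLUT4 gene, had 9.81 TPM in Isl1CKO, 9.06 in DKO, 6.81 in Pou4f1KO and 8.20 in control. Of 12 genes for peptides, receptors and enzymes around oxytocin, vasopressin and angiotensin, 3 passed the filter and 0 were past 2-fold. Oxt, Avp and Avpr1b were listed at 0.

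Of 17 non-receptor tyrosine phosphatases 13 passed the filter, and Ptpn4 was the only one past 2-fold with the Isl1 label. Ptpn3, its closest paralog with the same FERM and PDZ layout, followed the Pou4f1 label instead: it had 16.3 TPM in Isl1CKO, 3.86 in DKO, 5.37 in Pou4f1KO and 15.0 in control. Its log2 ratios were 0.11 for Isl1CKO against control and -0.39 for DKO against Pou4f1KO, but -1.33 for Pou4f1KO against control and -1.72 for DKO against control. Both paralogs were thus low in the library labelled DKO, Ptpn4 together with Isl1CKO and Ptpn3 together with Pou4f1KO. Of 15 genes for known or proposed PTPN4 partners, 13 passed the filter and 0 were past 2-fold with the Isl1 label; the glutamate receptor gene Grin1 was low throughout, with 3.25 TPM in Isl1CKO, 3.83 in DKO, 4.92 in Pou4f1KO and 3.47 in control.

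**Figure D5:**
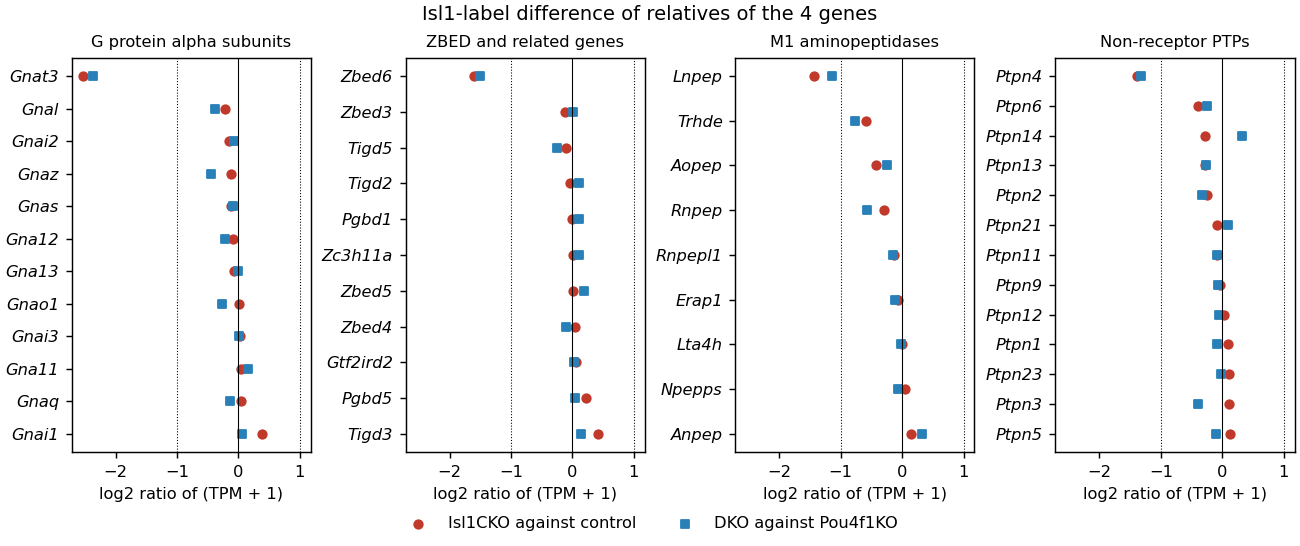
Log2 ratio of (TPM + 1) for each family member past the filter, as circles for Isl1CKO against control and squares for DKO against Pou4f1KO, with dotted lines at 2-fold. In each family 1 gene lies left of the lower 2-fold line: Gnat3, Zbed6, Lnpep or Ptpn4.

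Gene length was set beside the difference, since Lnpep and Ptpn4 have long transcripts. Of the compared genes 14685 (97.6%) had an exon length in GENCODE. Genes of 8 kb and over, the class of Lnpep and Ptpn4, had a median ratio of -0.08 in Isl1CKO against control and -0.10 in DKO against Pou4f1KO, with 13 (0.512%) and 26 (1.02%) of 2540 at least 2-fold lower. Genes under 2 kb, the class of Gnat3, had medians of -0.01 and 0.04, and genes of 4 to 8 kb, the class of Zbed6, had -0.02 and -0.03. The rows of Lnpep and Ptpn4 hold only 7270 and 5153 of their GENCODE exonic bases, lengths that fall within 4 to 8 kb. The part of length in the values of the 4 genes was not tested. Nuclear long non-coding RNAs, a sign of how much nuclear RNA a library holds, had medians of 0.02 and -0.01 over 12 genes.

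In bulk tissue, fewer cells of a type and less RNA per cell cannot be told apart, so the makeup of the ganglia is given beside the 4 genes. Summed otic epithelium markers (25 of 26 past the filter) were 619 TPM in the library labelled Isl1CKO, 357 in DKO, 471 in Pou4f1KO and 1006 in control, with median ratios of -0.63 in Isl1CKO against control and -0.31 in DKO against Pou4f1KO. Neural tube markers (18 of 24 past the filter) summed to 197, 204, 264 and 196 TPM in the same order, and 13 of these genes were at least 2-fold lower in DKO against Pou4f1KO (1.12% of all genes). It was the library labelled Pou4f1KO that stood apart: 12 of the 18 were at least 2-fold higher in Pou4f1KO against control (median 1.28, 0.977% of all genes), and the median in DKO against control was 0.06. Glial and neural crest markers summed to 974 TPM in Isl1CKO, 1047 in DKO, 1167 in Pou4f1KO and 1025 in control, and endothelial markers to 114, 188, 145 and 157 TPM. Pan-neuronal genes had medians of 0.11 in Isl1CKO against control and -0.20 in DKO against Pou4f1KO. Of the 10 cell lists, 0 had a sum with both libraries with the Isl1 label below both others. A sum is led by its most abundant genes and does not show what single members do. Tlx3 led the sum of the neural tube markers, with 124 TPM in Isl1CKO, 140 in DKO, 132 in Pou4f1KO and 101 in control. Without Tlx3 that sum would be lower in both libraries with the Isl1 label than in both others. The count of 0 therefore rests on this gene. On the otic epithelium list, Gata3, Fgf10, Sox2 and Jag1 did have both libraries with the Isl1 label below both others. The other genes on that list, Oc90 and Tbx1 among them, did not. Of the genes of these cell lists that are in the tables, Pou2f3 alone was listed at 0 in all 4 libraries. The part of these cells in the values of the 4 genes was not tested.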

How the data were processed

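RNA was measured in 4 mouse cochleovestibular ganglion libraries, 1 per genotype label. Per the labels' protocols, ganglia were frozen, RNA was extracted with Trizol and libraries were strand-specific. The submitters' processing notes name HISAT2, StringTie, SAMtools, Trimmomatic and FastQC with build mm10. Their order, versions and settings, and the gene annotation, are not given in the sources used here. Tables that the authors deposited hold per gene, per the file headers, TPM, FPKM and coverage (mean read depth per base, an unscaled signal). Depth was read from the ratio of deposited coverage to FPKM, which 55.9% to 56.2% of genes of a library share within 0.001, taken as gigabases aligned. It limits the precision of low values, and no counts were available for intervals.

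Rows sharing a symbol were summed. The comparison was the log2 ratio of (TPM + 1) among genes with 1 TPM in at least 1 library, counted past 2-fold (Python 3.11.15, pandas 2.3.3, numpy 2.4.6, with steps tested on simulated data). No test fits 1 library per group. Annotation came from GENCODE M21 and promoters from RefSeq (GRCm38.p6). The 4 genes and 21 gene lists were chosen with earlier results of these data known. Named are the 4 genes, overlapping and nearest rows, the 3 most alike genes each, paralogs, and members of the family and pathway lists past 2-fold or abundant; cell marker and other lists are given as sums, medians or counts, with few of their members named. Others were chosen after their values were seen. Alternatives changed the unit, pseudocount, filter, scaling, symbol handling and, for Zbed6, the overlapping row. Those for the departure and the 4-library pattern were chosen after seeing the data.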

Additional observations from a re-analysis of the deposited data

Results flagged for a closer look

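Prrx2, a homeobox gene of mesenchyme and 1 of the 20 mesenchyme markers set beside the 4 genes, had 5.71 TPM in the library labelled Isl1CKO, 17.7 in DKO, 6.01 in Pou4f1KO and 12.8 in control. It was lower in Isl1CKO against control (log2 ratio -1.04) and higher in DKO against Pou4f1KO (1.42), which puts its difference with the Isl1 label 2.46 apart between the Pou4f1 backgrounds. The opposite directions drew attention to it, and with 1 library per genotype the difference between them was not tested. The mesenchyme list as a whole had median ratios of opposite sign, -0.49 in Isl1CKO against control and 0.56 in DKO against Pou4f1KO over 20 genes, with Twist2 at -0.88 and 1.26 and Pdgfra at -0.70 and 0.70. Gnat3, Zbed6, Lnpep and Ptpn4 were lower in both comparisons, but they were chosen for that, so nothing is read from their shared direction.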

How the results depend on the processing

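The 4 genes, which were chosen for being lower with the Isl1 label, were lower under every alternative tried. For these genes coverage per gigabase repeated FPKM, and the highest row of a symbol repeated the main value, so neither was a separate check. Over 8 alternatives of unit, pseudocount, scaling and symbol handling, the log2 ratio of Isl1CKO against control ran from -2.95 to -1.64 for Gnat3, -1.73 to -1.35 for Zbed6, -1.63 to -0.94 for Lnpep and -1.62 to -0.86 for Ptpn4. For DKO against Pou4f1KO it ran from -2.80 to -1.48, -1.57 to -1.29, -1.28 to -0.76 and -1.53 to -0.84. Short of 2-fold were Lnpep and Ptpn4 with a pseudocount of 5 (-0.94 and -0.86 for Isl1CKO against control, -0.76 and -0.84 for DKO against Pou4f1KO). Lnpep in DKO against Pou4f1KO also fell short in FPKM (-0.89), in coverage per gigabase (-0.89) and with pan-neuronal scaling (-0.98). In DKO against control, Lnpep and Ptpn4 fell short in FPKM and in coverage per gigabase (-0.96 and -0.99 in both) and with a pseudocount of 5 (-0.80 and -0.80). Zbed6 summed with Zc3h11a gave -0.22 and -0.13. A larger added constant pulls low values towards 0 by construction. FPKM values were lower than TPM values (6.14 against 17.1 for Gnat3 in control), so the 1 added to FPKM has the same effect. The cause of the other shifts was not tested.

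Counts of genes past 2-fold depended on the unit, the pseudocount and the filter, in the order FPKM, coverage per gigabase, pseudocount 0.1, pseudocount 5 and filter of 5 TPM. For Isl1CKO against control, higher genes numbered 36, 34, 220, 22 and 52, and lower genes 25, 27, 287, 14 and 51. For DKO against Pou4f1KO, higher genes numbered 42, 40, 247, 24 and 51, and lower genes 69, 64, 369, 41 and 97. For DKO against control, higher genes numbered 75, 68, 343, 51 and 93, and lower genes, without the filter, 186, 171, 605 and 127. For Pou4f1KO against control, higher genes numbered 71, 62, 323, 31 and 88, with 92 under pan-neuronal scaling. Lower genes there numbered 138, 126, 469, 87 and 167, with 449 under pan-neuronal scaling. The pattern of both libraries with the Isl1 label at least 2-fold below both others was met by 5, 5, 49 and 4 genes in FPKM, coverage per gigabase, pseudocount 0.1 and pseudocount 5, and its mirror image by 9 in FPKM, 38 with pseudocount 0.1 and 7 with pseudocount 5. The other 52 counts stayed within 1.5 times. The departure from additivity was 0.46 for Gnat3, 0.38 for Zbed6, 0.57 for Lnpep and 0.33 for Ptpn4 with pan-neuronal scaling, and 0.17 for Lnpep and 0.018 for Ptpn4 with pseudocount 5. Alternatives for the pattern and the departure were chosen after seeing the data. Pan-neuronal scaling shifted the median of all genes by -0.12 in Isl1CKO against control, 0.16 in DKO against Pou4f1KO, -0.19 in DKO against control and -0.34 in Pou4f1KO against control.

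No paired analysis was possible because each genotype has 1 library and no replicate number. Leaving out a library would leave its genotype with none, so it was not run. The tables give no read counts, so counting error at the level of Gnat3 in the library labelled Isl1CKO could not be computed.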
